A study of Mus musculus with 10 samples.

Results

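A set of 10 genes of the NF-kB pathway, chosen by symbol, was followed across the livers of the study. They are the transcription factor subunits Nfkb1, Nfkb2, Rela and Relb, and the inhibitors and feedback genes Nfkbia and Tnfaip3. The others are Bcl3, which encodes a nuclear IkB family protein, the adhesion molecule Icam1, and the cytokines Tnf and Il1b. These 10 genes are among 24537 in the deposited count table, and each of the 10 passed the filter on low counts that left 13909 genes for testing.

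NF-kB is a family of dimeric transcription factors that are held in the cytoplasm by inhibitor proteins of the IkB family. Signals from receptors such as those for tumour necrosis factor, interleukin 1 and bacterial products activate the IkB kinase complex, the inhibitor is degraded and the dimer enters the nucleus. Several of its targets, Nfkbia and Tnfaip3 among them, encode proteins that switch the signal off again. In the liver the pathway is active in hepatocytes, where it takes part in the acute phase response and in survival, and in Kupffer cells and other leukocytes, which are main sources of the cytokines.

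The study measured polyA RNA in whole liver of male mice. Every animal had received an adeno-associated virus (AAV8) carrying saCas9 under TBG, a promoter active in hepatocytes, together with a U6-driven guide RNA. Young Rosa26 controls (n = 3, virus at 7 months, liver taken at 9 months) and old Rosa26 controls (n = 3, virus at 23 months, liver taken at 25 months) carried a guide to the Rosa26 locus, a neutral site used as the cutting control. Old Cd44 knockout livers (n = 4, same ages as the old controls) carried a guide to Cd44, which encodes a hyaluronan receptor: knockout livers 1 and 2 received guide 4, and knockout livers 3 and 4 received guide 2. Editing is directed to hepatocytes, so Cd44 RNA from the other cells of the liver is still counted, and all 3 groups share the virus and the nuclease. Nothing in the labels says that the livers of a group came from separate animals, so p-values measure only the spread between these samples, which may be technical.

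Total counts ran from 15821198 to 21710228 per liver, and the biological coefficient of variation was 21.8%. Values are given as CPM, counts scaled to library size with TMM factors that correct for differences in RNA composition, and 3 counts correspond to 0.131 to 0.198 CPM. The hepatocyte markers summed to between 82033 and 132446 CPM in every liver. Counts of Cd44, the edited gene, were 16.6, 11.1 and 10.1 CPM in the young controls, 14.2, 29.98 and 25.9 CPM in the old controls, and 18.9, 29.0, 17.6 and 13.1 CPM in knockout livers 1 to 4. They did not separate the livers labelled knockout from the old controls (log2 fold change -0.25, SE 0.30, edgeR adjusted p = 0.896), so directions in that comparison rest on the labels, and a knockout liver here means a liver labelled so. Old control 3 has a library name outside the numbering run of the others, and results that change without it are given so.

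The promoters of 5 members are shown because they carry the pathway's binding sequence in a feedback gene or belong to a gene that changed with age. The RefSeq promoter table (GRCm38.p6) held 8 of the 10 members, in 11 windows of 300 bases, from 250 before to 50 after a start of transcription. The 250 bases before the start are printed 5′ to 3′ in the direction of the gene. Capitals mark every match to the NF-kB consensus of 10 bases, GGGRNNYYCC, searched on both strands. In it R is A or G, Y is C or T, and N is any base. The first 3 lines are feedback and subunit genes with a match, and the last 2 are Bcl3 and Rela.
Nfkbia, chr12:55492648-55492897, minus strand: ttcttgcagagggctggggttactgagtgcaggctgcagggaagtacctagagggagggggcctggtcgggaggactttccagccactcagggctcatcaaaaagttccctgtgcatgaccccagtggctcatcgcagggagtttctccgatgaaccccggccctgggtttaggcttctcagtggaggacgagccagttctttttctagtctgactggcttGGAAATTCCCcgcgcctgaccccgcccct
Tnfaip3, chr10:19015411-19015660, minus strand: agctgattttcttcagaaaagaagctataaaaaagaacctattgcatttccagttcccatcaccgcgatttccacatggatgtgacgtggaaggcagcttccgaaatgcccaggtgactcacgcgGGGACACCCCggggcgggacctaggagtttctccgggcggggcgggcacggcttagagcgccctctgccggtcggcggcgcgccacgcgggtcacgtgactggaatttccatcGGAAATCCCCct
Nfkb2, chr19:46304487-46304736, plus strand: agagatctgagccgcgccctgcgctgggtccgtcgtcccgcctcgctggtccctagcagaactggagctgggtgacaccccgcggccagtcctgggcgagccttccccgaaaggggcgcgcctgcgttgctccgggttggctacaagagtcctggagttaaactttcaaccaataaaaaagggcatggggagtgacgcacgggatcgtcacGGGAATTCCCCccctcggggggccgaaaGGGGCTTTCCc
Bcl3, chr7:19822756-19823005, minus strand: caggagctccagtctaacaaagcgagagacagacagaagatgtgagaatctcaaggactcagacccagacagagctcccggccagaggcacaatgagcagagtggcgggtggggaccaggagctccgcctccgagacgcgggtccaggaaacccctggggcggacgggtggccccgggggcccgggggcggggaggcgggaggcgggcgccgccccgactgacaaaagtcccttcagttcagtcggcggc
Rela, chr19:5637291-5637540, plus strand: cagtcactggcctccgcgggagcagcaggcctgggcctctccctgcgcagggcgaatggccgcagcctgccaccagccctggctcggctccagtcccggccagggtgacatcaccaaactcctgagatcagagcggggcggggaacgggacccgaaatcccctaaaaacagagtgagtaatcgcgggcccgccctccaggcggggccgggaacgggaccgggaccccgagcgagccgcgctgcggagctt

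The consensus occurred in the 300-base windows of 4 members, Nfkbia, Tnfaip3, Nfkb2 and Bcl3, and in the 250 bases before the start for 3 of them. It was found in 2779 of 32851 windows of that length in the table (8.46%), or in 9.55% of its genes. Nfkbia, the IkBα inhibitor gene, had GGGAATTTCC on the opposite strand at positions -29 to -20 from its start. Tnfaip3, which encodes the ubiquitin-editing inhibitor A20, has 2 windows, and the first, which is printed and is the one with matches, had GGGACACCCC at positions -125 to -116 and GGGGATTTCC on the opposite strand at -12 to -3. Nfkb2 has 3 windows in the table, each with a match, and the first is printed. It had GGGAATTCCC, which matches on both strands, at positions -39 to -30, overlapped by GGGGAATTCC on the opposite strand at -38 to -29, and GGGGCTTTCC at -11 to -2. The second window had GGGACATTCC on the opposite strand at positions -236 to -227 from its start and GGGACTTTCC at 11 to 20 bases after it, and the third had GGGACTTTCC at positions -225 to -216. The match in Bcl3, GGGAAGTCCC, lies at 3 to 12 bases after the start and so outside the printed window. Rela, Icam1, Tnf and Il1b had no match to these letters in their windows. Sequences close to the consensus were not counted, such as TGGAAATTCC in the Icam1 window, which departs from it only at its first base. The lack of a match therefore does not show that a window lacks a binding site. A match is a description of the letters only, and binding was not measured.

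Levels were compared between members per kilobase of exon, as CPM per kb. In young controls the order was Bcl3 35.98 ± 9.25, Nfkbia 26.8 ± 3.15 and Rela 26.2 ± 1.31 CPM per kb (SD, n = 3), with ranges over the livers that overlapped. Icam1 (6.94 ± 2.41), Nfkb2 (4.58 ± 1.32) and Nfkb1 (3.12 ± 0.635) followed, and the ranges of neighbours in this order overlapped again. Relb, Il1b, Tnfaip3 and Tnf were the lowest, at 1.17 ± 0.412, 1.04 ± 0.331, 0.661 ± 0.111 and 0.371 ± 0.221 CPM per kb, also with overlapping ranges between neighbours. In old controls the order at the top was Nfkbia 33.0 ± 4.12, Rela 19.6 ± 2.79 and Bcl3 16.3 ± 5.59 CPM per kb, and in the knockout livers Nfkbia 30.7 ± 1.91, Rela 18.5 ± 0.355 and Bcl3 16.0 ± 4.21 CPM per kb (n = 4). Bcl3 stood first in the young livers and behind Nfkbia and Rela in both old groups, where every liver had more Nfkbia than any liver had Rela and the ranges of Rela and Bcl3 overlapped.

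**Figure D1:**
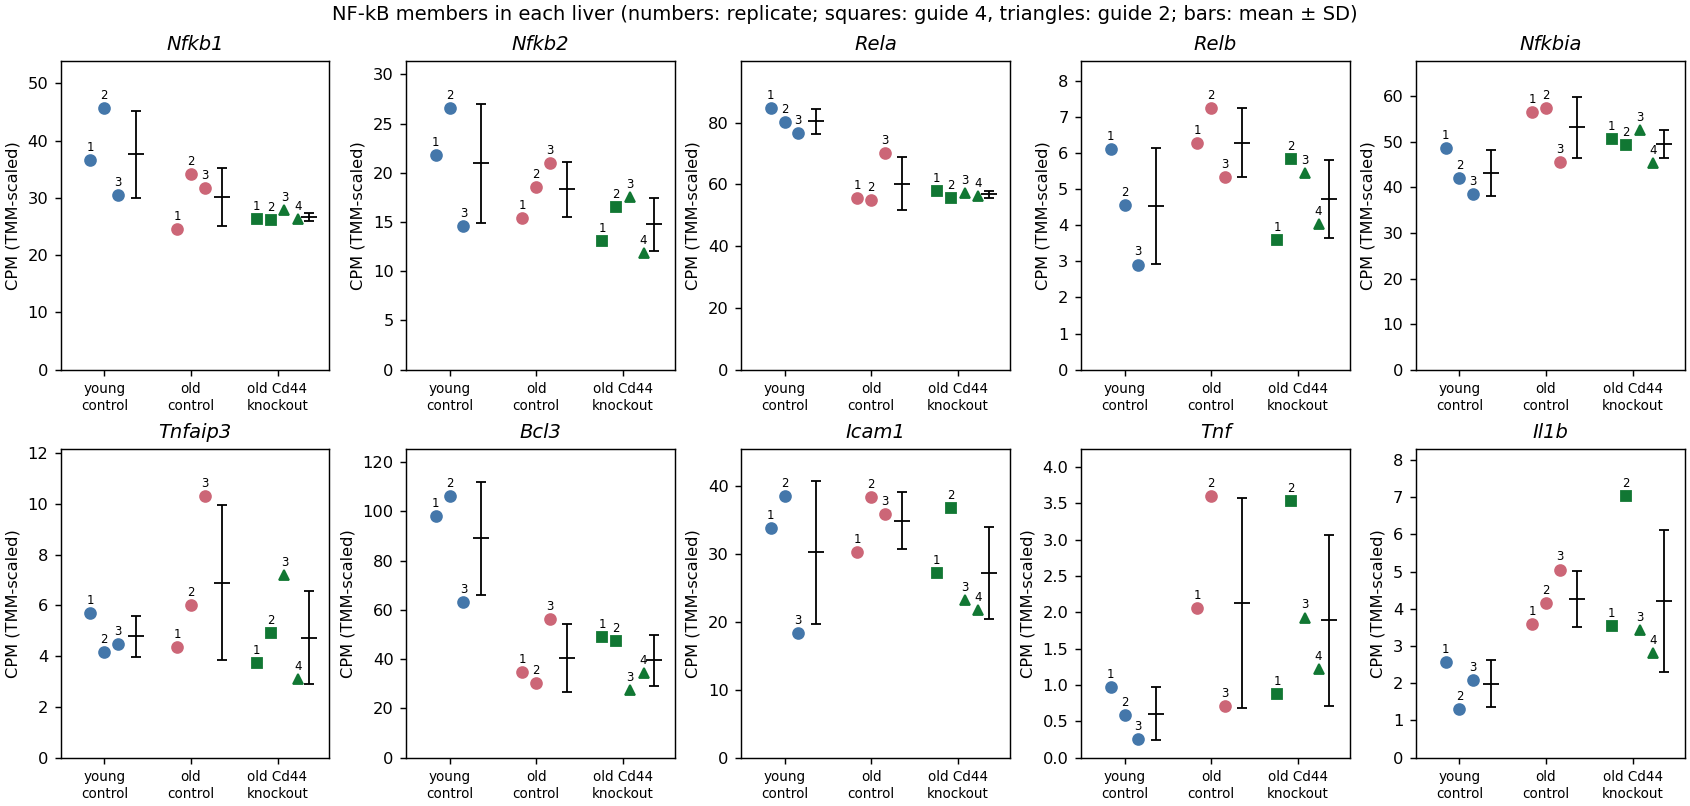
Level of each of the 10 members in each liver, in CPM after TMM scaling, with 1 panel per gene and a linear axis from 0; points are livers numbered by replicate, squares are guide 4 and triangles guide 2, and bars give the mean ± SD of the group. Bcl3 and Rela lie lower in both old groups than in all young livers, and Il1b lies higher in both old groups than in all young livers.

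With age, 2 of the 10 members changed in the Rosa26 controls, Bcl3 and Rela, and both fell. Bcl3 was at 0.453 times and Rela at 0.749 times its young level. The cytokine transcripts Tnf and Il1b had the largest fitted increases without passing the test, and Tnf passed the filter on low counts only through old livers. Called genes have an adjusted p under 0.05 from edgeR's quasi-likelihood test with Benjamini-Hochberg adjustment over all 13909 genes. By that rule 22.8% of all genes tested were called, 8.66% as lower and 14.1% as higher, so 2 of 10 is close to the background and 0 of 10 rose. At an unadjusted p under 0.05 the count was 5 of 10, with 38.5% of all genes. Groups did not overlap for 3 members, Rela, Bcl3 and Il1b, with 37.7% of all genes. The median log2 fold change was 0.26 over the members and 0.04 over all genes tested. Scaling to total counts alone, without TMM, moved the median of all genes to 0.34 and the share of called genes that were higher from 62% to 91.6%.

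Rela encodes the subunit p65, which carries a strong activation domain (chr19:5637483-5648130, plus strand, in GENCODE M21 on GRCm38, as for every gene position given). It was at 84.7, 80.2 and 76.7 CPM in the young controls and at 55.6, 55.1 and 70.2 CPM in the old controls. All 3 old controls lay below all 3 young controls, with old control 3 nearest to them. The log2 fold change was -0.42 (SE 0.12, 95% interval -0.68 to -0.15, edgeR adjusted p = 0.0317). The call ended in 8 of 12 alternatives. Without TMM scaling the log2 fold change was -0.12 (edgeR adjusted p = 0.369), with no filter the edgeR adjusted p was 0.0507 and with only the groups compared 0.109. Leaving out young control 1, 2 or 3 or old control 1 or 2 gave edgeR adjusted p = 0.0936, 0.0922, 0.0623, 0.0631 and 0.121. Without old control 3 the fall was larger (log2 fold change -0.55, edgeR adjusted p = 0.00448).

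Nfkb1 (chr3:135584655-135691547, minus strand), which encodes the precursor of p50, was at 36.6, 45.7 and 30.5 CPM in young and 24.5, 34.3 and 31.7 CPM in old controls. Its groups overlapped, and its log2 fold change of -0.32 (SE 0.16) did not pass the test (edgeR adjusted p = 0.1702). Nfkb2 (chr19:46304320-46312385, plus strand), which encodes the precursor of p52, was at 21.8, 26.6 and 14.6 CPM in young and 15.4, 18.6 and 21.0 CPM in old controls. Its log2 fold change was -0.19 (SE 0.22, edgeR adjusted p = 0.551), and the old values fell inside the young range. The gene overlaps Psd on the other strand, and since strand use in counting is not given in the sources used here, reads of the pair cannot be told apart. Relb, the partner of p52 in the non-canonical arm (chr7:19606217-19629438, minus strand), was at 6.12, 4.55 and 2.91 CPM in young and 6.29, 7.24 and 5.34 CPM in old controls. Its log2 fold change was 0.47 (SE 0.28, edgeR adjusted p = 0.242), and old control 3 lay within the young range. The fifth subunit gene, Rel, did not pass the filter on low counts.

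Bcl3 encodes a nuclear IkB family protein that binds p50 and p52 dimers (chr7:19808462-19822770, minus strand). It lies 179.023 kb from Relb on the same chromosome, and the annotation places the antisense genes Gm16175 and Gm16174 over it. The young controls were at 98.0, 106 and 63.0 CPM, and the old controls at 34.6, 30.3 and 56.2 CPM. The groups did not overlap, with young control 3 the lowest of its group and old control 3 the highest of its own. The log2 fold change was -1.14 (SE 0.29, 95% interval -1.77 to -0.51, edgeR adjusted p = 0.0207). The call ended without young control 1, young control 2 or old control 2 (edgeR adjusted p = 0.05845, 0.0851 and 0.0800), while the log2 fold change stayed between -1.46 and -0.85 over all 12 alternatives. Without old control 3 it was -1.46 (edgeR adjusted p = 0.00481).

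Nfkbia (chr12:55489410-55492647, minus strand) was at 48.6, 42.1 and 38.6 CPM in young and 56.6, 57.4 and 45.5 CPM in old controls. Old controls 1 and 2 lay above all young livers and old control 3 inside their range. The log2 fold change of 0.30 (SE 0.13, 95% interval 0.01 to 0.59) had an unadjusted edgeR p of 0.0417 and did not pass after adjustment (edgeR adjusted p = 0.115). It passed without old control 3 (log2 fold change 0.40, edgeR adjusted p = 0.0288) and without TMM scaling (0.62, edgeR adjusted p = 0.0131). Tnfaip3 (chr10:19000910-19015657, minus strand) was at 5.69, 4.15 and 4.50 CPM in young and 4.37, 6.01 and 10.3 CPM in old controls. Here old control 3 was the highest liver, and the log2 fold change of 0.53 (SE 0.36) did not pass (edgeR adjusted p = 0.300). Without old control 3 it was 0.12 (edgeR adjusted p = 0.801).

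Icam1, the adhesion molecule that binds leukocyte integrins (chr9:21015985-21028817, plus strand, with Gm47079 antisense to it), was at 33.8, 38.5 and 18.4 CPM in young and 30.3, 38.5 and 35.9 CPM in old controls. All 3 old values lay within the young range, and the log2 fold change was 0.21 (SE 0.26, 95% interval -0.36 to 0.78, edgeR adjusted p = 0.588).

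Tnf, the gene of tumour necrosis factor (chr17:35199381-35202007, minus strand), was at 0.979, 0.593 and 0.253 CPM in young controls, from 16, 9 and 4 counts. Young controls 2 and 3 thus lay under the filter's count minimum of 10. Tnf passed the filter only through old livers, which favoured a higher value with age in advance. The old controls were at 2.06, 3.60 and 0.715 CPM, from 42, 79 and 15 counts. Old controls 1 and 2 lay above all young livers and old control 3 between young livers. The log2 fold change was 1.79 (SE 0.69, 95% interval 0.27 to 3.32), with an edgeR adjusted p of 0.0828. The value depended on single livers: it was 2.20 (edgeR adjusted p = 0.0204) without old control 3 and 1.17 (edgeR adjusted p = 0.298) without old control 2. DESeq2 gave 1.80 with an adjusted p of 0.0387, and edgeR without TMM scaling gave 2.14 with an adjusted p of 0.04599. Tnf passed in 3 of 12 alternatives, namely these and the fit without old control 3.

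Il1b encodes interleukin 1β, which is made as a precursor and cut by caspase 1 (chr2:129364570-129371139, minus strand, with Il1bos antisense to it). Young controls were at 2.57, 1.32 and 2.09 CPM and old controls at 3.59, 4.15 and 5.05 CPM. Every old control lay above every young control, 2.13-fold higher on the fitted scale. The log2 fold change was 1.09 (SE 0.37, 95% interval 0.28 to 1.90), with an edgeR adjusted p of 0.0538. DESeq2 gave 1.09 with an adjusted p of 0.0266, and edgeR without TMM scaling gave 1.38 with an adjusted p of 0.0212. In the other 10 of 12 alternatives Il1b did not pass. Among these, limma voom gave an adjusted p of 0.0696, and the 6 fits with a liver left out gave edgeR adjusted p = 0.0609 to 0.183. The log2 fold change was lowest without young control 2, at 0.87.

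**Figure D2:**
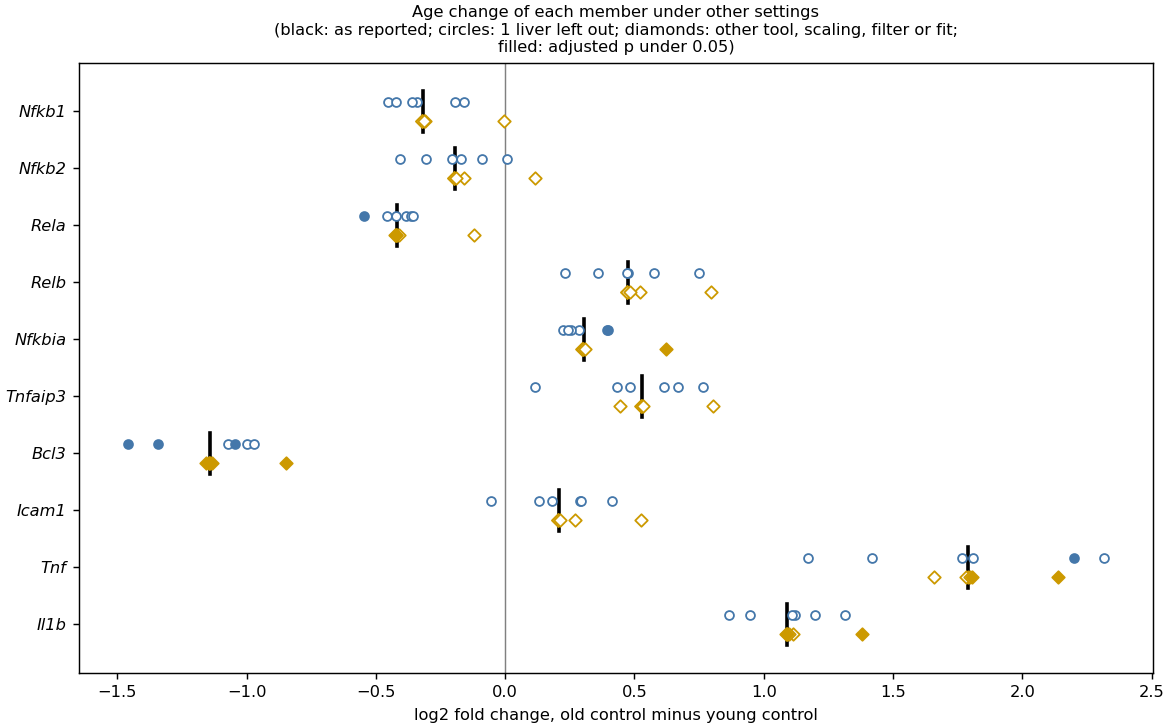
Log2 fold change of each member between old and young controls; the black line is the reported value, circles leave out 1 liver, diamonds use another tool, scaling, filter or fit, and filled points have an adjusted p under 0.05. Bcl3 stays between -1.46 and -0.85, while Nfkb2 and Icam1 have points on both sides of 0.

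Markers of leukocytes and other non-hepatocyte cells were also higher in the old controls. A change in the number of cells of a type and a change in their RNA per cell cannot be told apart in whole liver. Kupffer cell markers (8 genes) summed to 222 to 318 CPM in young and 424 to 1386 CPM in old controls, and 6 of 8 were called higher. Monocyte and macrophage markers (8 genes) summed to 47.1 to 81.8 and 100 to 487 CPM, with 5 of 8 called higher. T and NK cell markers summed to 2.85 to 4.04 and 4.005 to 50.03 CPM, with 3 of 7 called higher. Neutrophil markers summed to 7.35 to 15.9 and 25.7 to 260 CPM, with 5 of 7 tested called higher and up to 2 of 8 at 0 in a young liver. Endothelial markers summed to 161 to 225 and 324 to 365 CPM, with 6 of 8 called higher, and stellate cell markers to 137 to 201 and 276 to 419 CPM, with 6 of 6 called higher. B and plasma cell markers summed to 3.69 to 8.01 and 8.39 to 34.5 CPM, with 4 of 6 called higher, and platelet markers to 3.06 to 4.88 and 8.06 to 91.4 CPM, with 3 of 3 tested called higher. Hepatocyte markers summed to 103879 to 132446 CPM in young and 82033 to 113726 CPM in old controls. The old control with the most Tnf, liver 2, was also the highest of all 10 for most marker lists. These were Kupffer (1386 CPM), monocyte (487), neutrophil (260), T and NK (50.03), B and plasma (34.5), platelet (91.4), endothelial (365) and stellate cell markers (419). Old control 1, second of its group for Tnf (2.06 CPM), had the lowest Kupffer and monocyte sums of that group (424 and 100 CPM). Old control 3, with Tnf within the young range, had T and NK markers of 4.005 CPM but Kupffer markers of 869 CPM and the highest Il1b of its group. The part of these cell types in the values of Tnf, Il1b and the other members was not tested.

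**Figure D3:**
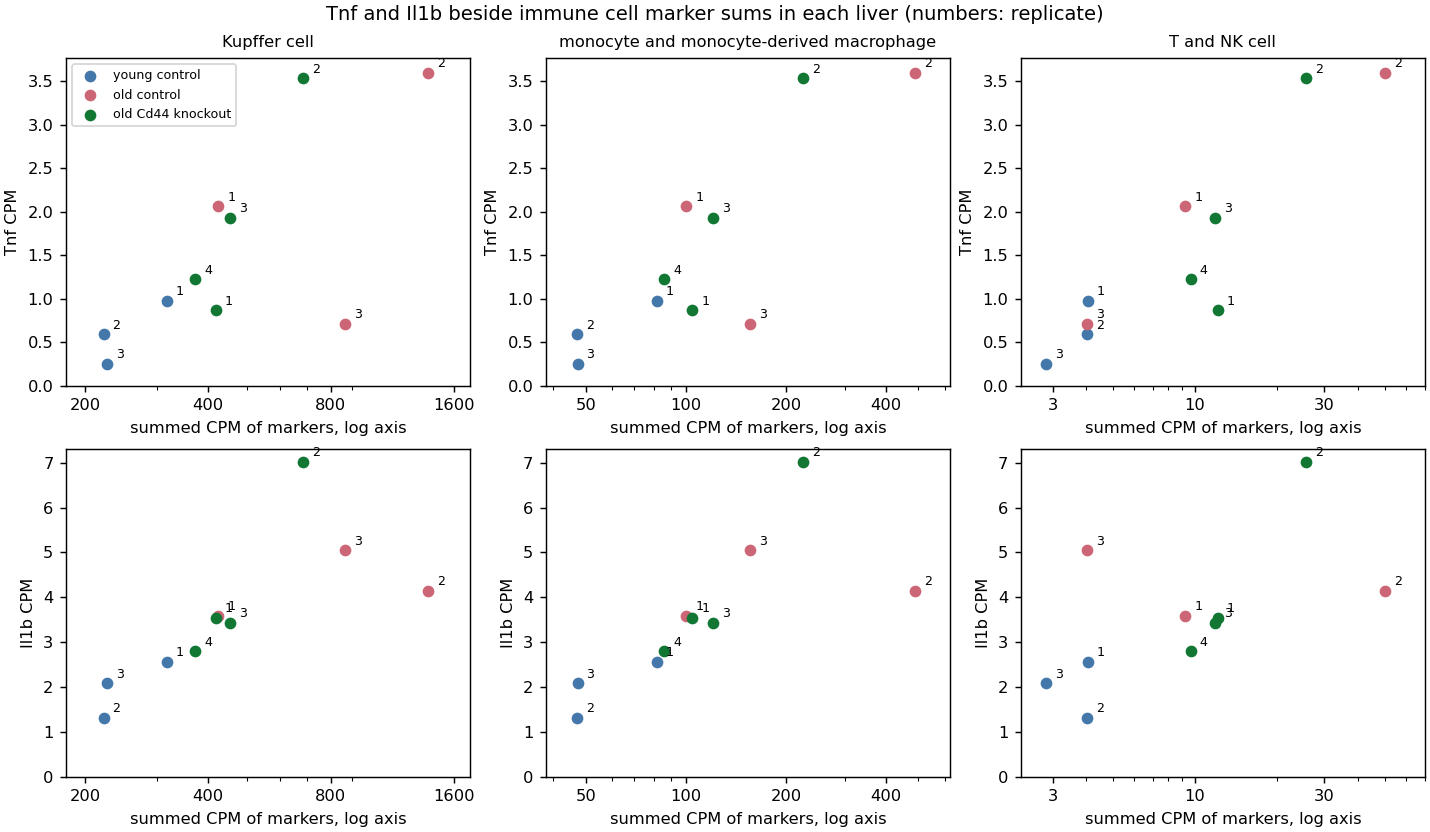
Tnf and Il1b in each liver, in CPM, against the summed CPM of Kupffer cell, monocyte and macrophage, and T and NK cell markers on a log axis; each point is a liver numbered by replicate, and colour gives the group. The livers with the most Tnf, old control 2 and knockout liver 2, also have the highest monocyte and macrophage marker sums (487 and 225 CPM). Old control 3 has more Kupffer markers than knockout liver 2 (869 and 684 CPM) and less Tnf (0.715 and 3.53 CPM).

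The rest of the pathway was read by role, in 92 other genes tested of 104 listed. With age 21 of the 92 rose and 11 fell, next to 14.1% and 8.66% of all genes, and their median log2 fold change was 0.11. Transcripts of ligands and of the inflammasome, which processes interleukin 1, were mostly higher, and no kinase of the pathway was called. Among the 8 ligands tested, Tnf and Il1b (not called) included, 5 rose and 0 fell, with a median log2 fold change of 1.27 and 7 of 8 above 0. Tnf passed the filter only through old livers, so its direction adds nothing to that median and count. Among the 6 inflammasome genes 4 rose and 0 fell, with a median of 1.37 and 6 of 6 above 0. Of 20 receptors 6 rose and 5 fell, of 16 adaptors 2 rose and 2 fell, of 12 other inhibitors and feedback genes 1 rose and 2 fell, and of 21 other inflammatory and survival targets 3 rose and 2 fell. The 6 receptors include Tnfrsf13c, which was almost absent in young livers and passed the filter only through old livers, so its direction was set in advance. None of the 11 kinases passed (smallest edgeR adjusted p = 0.076). The call depended on the livers or the fit for most of these genes: of 28 that are named here, 7 kept it in all 12 alternatives, namely Tnfrsf12a, Tlr1, Il1a, Tnfsf12, Il18, Aim2 and Bcl2l1. Leaving out young control 2 left 7 of the 32 calls, and 393 of the 3172 calls over all genes. Of the 28 named, the call ended for 15, 21 and 16 without young control 1, 2 and 3, and for 5, 17 and 0 without old control 1, 2 and 3. Over all genes, 1635, 393 and 1462 of the 3172 calls were kept without young control 1, 2 and 3. Without old control 1, 2 and 3 the fits kept 2290, 1023 and 3037, so the loss of calls was not particular to these genes. Without old control 2, the liver highest in Kupffer, monocyte and T and NK markers, the fold of 9 of the 28 moved by over 1.5 times, and those values are given below.

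Il1a, the other interleukin 1 gene, was at 2.63, 2.18 and 1.90 CPM in young and 5.16, 7.47 and 5.77 CPM in old controls, with no overlap (log2 fold change 1.45, SE 0.25, edgeR adjusted p = 0.0081). Il18, a cytokine that caspase 1 also cuts, was at 11.4, 10.2 and 8.49 CPM in young and 16.7, 27.8 and 18.1 CPM in old controls (1.06, SE 0.20, edgeR adjusted p = 0.00925). Tnfsf12, the gene of the cytokine TWEAK, rose from 8.58 ± 2.44 to 17.7 ± 1.99 CPM (SD, n = 3 each, edgeR adjusted p = 0.00915). Its receptor Tnfrsf12a went the other way, from 33.4, 72.8 and 29.1 CPM in young to 12.5, 8.61 and 7.20 CPM in old controls (log2 fold change -2.26, SE 0.35, edgeR adjusted p = 0.00762). Tnfsf13b, the B cell factor BAFF, and Ltb, lymphotoxin β, also rose (log2 fold changes 2.04 and 1.52, edgeR adjusted p = 0.0111 and 0.0379), and without old control 2 they were 1.58 and 1.14 (edgeR adjusted p = 0.0395 and 0.145). Tnfsf13b and Ltb are expressed by leukocytes, B cells among them for Ltb, and the B and plasma cell marker sums given above were higher too; their part was not tested.

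In the inflammasome group, Aim2, a sensor of cytosolic DNA, rose from 1.34 ± 0.418 to 4.47 ± 1.61 CPM (SD, n = 3, edgeR adjusted p = 0.00983). Casp1, which cuts the interleukin 1β precursor, rose from 2.35 ± 0.364 to 5.80 ± 2.33 CPM (edgeR adjusted p = 0.0155). Pycard and Nlrc4 rose with log2 fold changes of 1.43 and 2.16 (edgeR adjusted p = 0.0431 and 0.0465). Without old control 2 these were 0.62 and 1.29 (edgeR adjusted p = 0.184 and 0.212), and Casp1 was 0.92 (edgeR adjusted p = 0.0557). These genes are expressed mainly in leukocytes, whose marker sums are given above, and the part of those cells in these values was not tested.

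Receptors moved both ways. Tlr1 rose from 1.02 ± 0.472 to 7.28 ± 4.9 CPM (SD, n = 3, log2 fold change 2.82, edgeR adjusted p = 0.0081), and Tlr6 and Tlr7 rose with log2 fold changes of 2.72 and 2.15 (edgeR adjusted p = 0.0154 and 0.0188). Without old control 2 the log2 fold changes were 2.10 for Tlr1, 1.73 for Tlr6 and 1.17 for Tlr7 (edgeR adjusted p = 0.0243, 0.0499 and 0.0511). Tnfrsf13c, the BAFF receptor of B cells, had 0, 1 and 0 counts in young and 11, 13 and 4 counts in old controls, where B and plasma cell markers were higher as well (8.39 to 34.5 against 3.69 to 8.01 CPM); their part was not tested. Il1r1 and Tnfrsf1a, receptors for the ligands among the members and named after their values were seen, fell. Il1r1, the interleukin 1 receptor, was at 181, 280 and 171 CPM in young and 41.1, 26.2 and 116 CPM in old controls (log2 fold change -1.78, SE 0.49, edgeR adjusted p = 0.028), with -2.65 without old control 3. Tnfrsf1a, a receptor for tumour necrosis factor, fell from 213 ± 34 to 125 ± 40.7 CPM (edgeR adjusted p = 0.0371), while the other such receptor, Tnfrsf1b, was at 43.1 ± 6.39 and 41.8 ± 9.49 CPM (edgeR adjusted p = 0.886). Il1r1 and Tnfrsf1a kept their call only without old control 3 among the 6 fits with a liver left out.

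Among adaptors, Myd88, which links interleukin 1 and Toll-like receptors to the kinases, fell from 43 ± 4.77 to 26.2 ± 2.72 CPM (SD, n = 3, edgeR adjusted p = 0.0115). Ticam1 fell from 27.4 ± 2.49 to 15 ± 4.37 CPM (edgeR adjusted p = 0.0183). Birc3, an ubiquitin ligase of the tumour necrosis factor receptor complex, rose from 9.08 ± 1.87 to 16.3 ± 2.51 CPM (edgeR adjusted p = 0.011). Ticam2 rose by 2.19 on the log2 scale (edgeR adjusted p = 0.0293), with 1.47 without old control 2 (edgeR adjusted p = 0.124).

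Of the other inhibitors, Nfkbib and Nfkbie, which encode IkBβ and IkBε, moved in opposite directions. Nfkbib fell from 31.9 ± 3.45 to 21.4 ± 3.04 CPM (SD, n = 3, edgeR adjusted p = 0.0238), and Nfkbie rose from 2.99 ± 0.30 to 6.205 ± 2.15 CPM (edgeR adjusted p = 0.0337). Otulin, a deubiquitinase that limits linear ubiquitin chains, fell by 0.48 on the log2 scale (edgeR adjusted p = 0.0379). Among the targets, Bcl2l1, which encodes the survival factor BCL-XL, was at 74.4, 73.3 and 63.7 CPM in young and 34.8, 45.8 and 36.4 CPM in old controls (log2 fold change -0.85, SE 0.13, edgeR adjusted p = 0.00741). Sod2, the mitochondrial superoxide dismutase, fell from 222 ± 20 to 158 ± 11.7 CPM (edgeR adjusted p = 0.0166). Plau and Bcl2a1b rose, with log2 fold changes of 2.18 and 1.97 (edgeR adjusted p = 0.0272 and 0.0329), and without old control 2 they were 1.04 and 0.98 (edgeR adjusted p = 0.107 and 0.147). Vcam1 rose on the fitted scale (log2 fold change 1.95, edgeR adjusted p = 0.0372), with old controls at 18.1, 125 and 23.6 CPM, with old control 2 far above the others; without it the log2 fold change was 0.53 (edgeR adjusted p = 0.124).

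**Figure D4:**
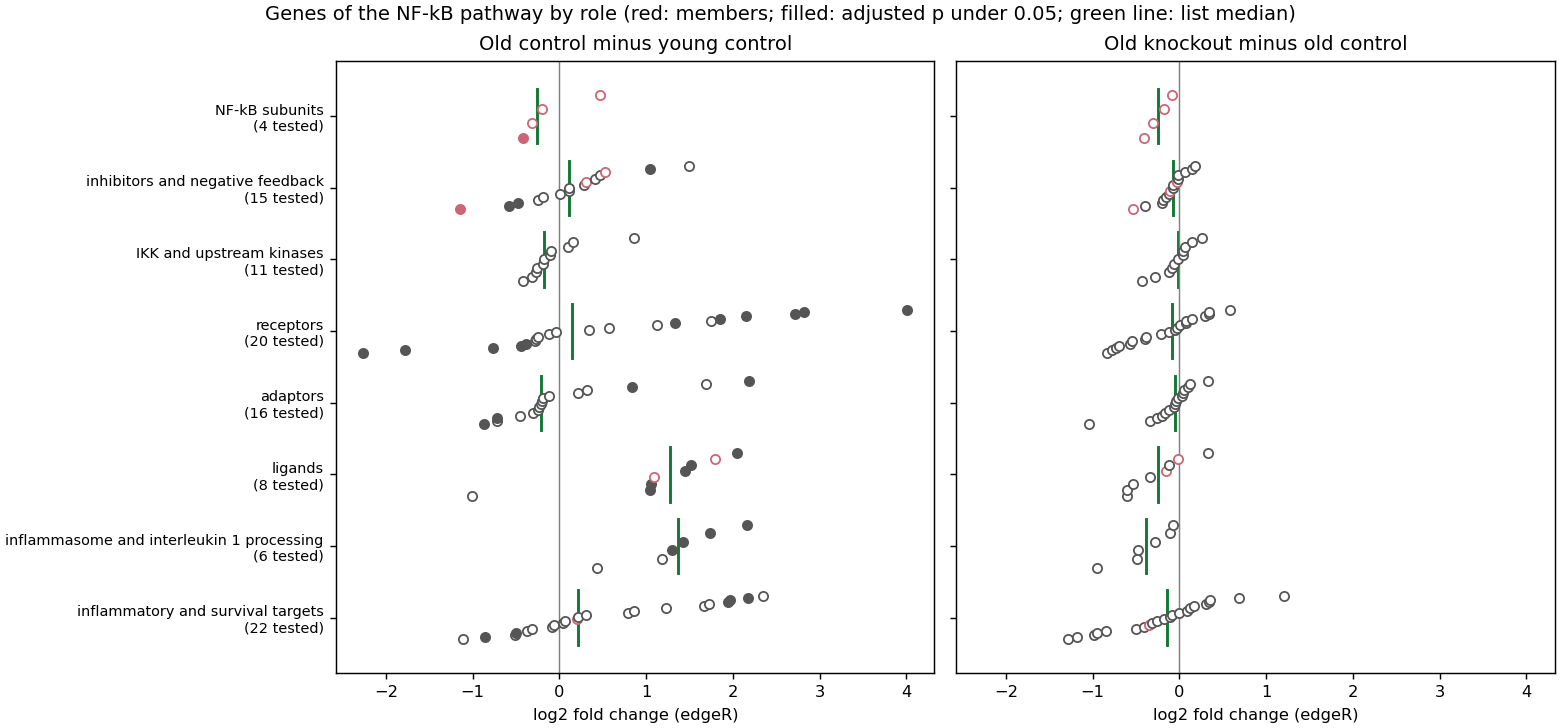
Log2 fold change of every tested pathway gene by role, old minus young control on the left and knockout minus old control on the right; members are red, filled points have an adjusted p under 0.05 and green lines are list medians. With age, ligands and inflammasome genes lie mostly above 0 (medians 1.27 and 1.37), and receptors lie on both sides, the rightmost being Tnfrsf13c with 0 or 1 count per young liver; no point is filled on the right.

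The question of the second comparison was how the old livers labelled Cd44 knockout differ from the old controls. No member passed the test: 0 of 10 were called by edgeR, 0 had an unadjusted p under 0.05, and DESeq2 and limma voom each called 0 of the 10. The percentage of all genes called was 0%, with 6.59% at an unadjusted p under 0.05, and the smallest adjusted p of any gene was 0.744. All 10 members lay below 0 on the log2 scale, with 54.4% of all genes, with a median of -0.17 next to -0.02 over all genes. The count of 10 moved to between 7 and 10 over the fits with a liver left out, and to 8 without TMM scaling. Markers of several other cell types were below 0 as well, although 0 were called in any list. All 8 Kupffer cell markers (median log2 fold change -1.03, 5 with an unadjusted p under 0.05), all 7 neutrophil markers tested (-2.24, 5), all 8 endothelial markers (-0.48, 6), all 6 stellate cell markers (-0.33, 2) and all 3 platelet markers tested (-2.43, 3) lay below 0. So did 7 of 8 monocyte markers (-0.73, 1), 3 of 7 T and NK markers (0.08, 0), 1 of 6 B and plasma cell markers (0.50, 1) and 5 of 6 hepatocyte markers (-0.14, 0). Their sums in old controls and knockout livers were 424 to 1386 and 372 to 684 CPM for Kupffer cells, 25.7 to 260 and 15.6 to 31.1 CPM for neutrophils, and 324 to 365 and 222 to 274 CPM for endothelium. The neutrophil and platelet sums of old control 2 (260 and 91.4 CPM) lay far above those of every other liver. Old controls 1 and 3 were at 27.1 and 25.7 CPM for neutrophils, within the range of the knockout livers. For platelets they were at 11.4 and 8.06 CPM, also within that group's range, which reached 14.9 CPM. The large neutrophil and platelet medians therefore rest on old control 2. The part of the listed cell types in the members' direction was not tested. No member's groups were separated, while those of 6.1% of all genes were.

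Among the subunits, Rela was at 58.0, 55.5, 57.3 and 56.3 CPM in knockout livers 1 to 4, a narrow range, next to 55.6, 55.1 and 70.2 CPM in the old controls (log2 fold change -0.09, 95% interval -0.33 to 0.16). Nfkb1 was at 26.4, 26.2, 27.8 and 26.3 CPM, inside the old control range (-0.18, -0.51 to 0.15). Nfkb2 was at 13.1, 16.5, 17.6 and 11.9 CPM (-0.31, -0.77 to 0.15) and Relb at 3.60, 5.84, 5.46 and 4.02 CPM (-0.41, -0.98 to 0.17). Knockout livers 1 and 4 lay below all old controls for both Nfkb2 and Relb.

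Bcl3 was at 48.9, 47.4, 27.4 and 34.2 CPM in knockout livers 1 to 4, on both sides of the old control mean of 40.4 CPM (log2 fold change -0.03, SE 0.27, 95% interval -0.62 to 0.56). Nfkbia was at 50.7, 49.3, 52.6 and 45.3 CPM (-0.10, interval -0.37 to 0.17). Tnfaip3 was at 3.72, 4.93, 7.20 and 3.09 CPM, with the largest fitted fall of the members (-0.54, interval -1.26 to 0.19, edgeR adjusted p = 0.794). Without old control 3, the highest liver for Tnfaip3 at 10.3 CPM, its log2 fold change was -0.13 (edgeR adjusted p = 0.886). Icam1 was at 27.2, 36.8, 23.2 and 21.8 CPM (-0.36, interval -0.89 to 0.17). None of these intervals leaves out 0, and none shows that the groups are alike.

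Tnf was at 0.871, 3.53, 1.93 and 1.23 CPM in knockout livers 1 to 4 and Il1b at 3.54, 7.02, 3.44 and 2.80 CPM. Knockout liver 2 was the highest for both. It also had the highest sums of its group for Kupffer (684 CPM), monocyte (225), T and NK (25.7), neutrophil (31.1), platelet (14.9), endothelial (274) and stellate cell markers (282). Its B and plasma cell sum (24.7 CPM) was below that of knockout liver 1 (29.8 CPM), and its cholangiocyte sum (80.8 CPM) was the lowest. The part of these cells was not tested. The log2 fold changes were -0.15 (interval -1.42 to 1.11) for Tnf and -0.01 (-0.73 to 0.70) for Il1b. Of the 92 other pathway genes 0 were called and 5 had an unadjusted p under 0.05, and their median log2 fold change was -0.09. The smallest p among the ligands was that of Il18, at 12.7, 14.7, 13.5 and 13.9 CPM in knockout livers 1 to 4, below all old controls (log2 fold change -0.61, SE 0.18, edgeR adjusted p = 0.744). Among the targets it was that of Vcam1 (-1.29, SE 0.52, edgeR adjusted p = 0.744), which rests on old control 2: without that liver the log2 fold change was 0.13.

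The knockout livers were also set against young controls. That comparison shares its young livers with the age comparison, and values are therefore given side by side. Against young controls 2 members were called, Rela (log2 fold change -0.50, SE 0.11, edgeR adjusted p = 0.0245) and Bcl3 (-1.17, SE 0.27, edgeR adjusted p = 0.0258), with 11.6% of all genes called and 4.97% called lower. The values with age in the controls were -0.42 and -1.14. Il1b differed by 1.08 on the log2 scale (edgeR adjusted p = 0.0658), next to 1.09 with age, and Tnf 1.64 (edgeR adjusted p = 0.115) next to 1.79. For Tnf, which passed the filter only through old livers, a higher value than in young livers was favoured in advance. Nfkb1 was at -0.49 (edgeR adjusted p = 0.0546) next to -0.32. Tnfaip3 and Relb were at -0.01 and 0.07 next to 0.53 and 0.47. Groups did not overlap for 4 members, Nfkb1, Rela, Bcl3 and Il1b, with 40% of all genes. Bcl3 lost its call without young control 1 or 2 or knockout liver 3 or 4 (edgeR adjusted p = 0.0707, 0.1145, 0.0631 and 0.06955), and Rela lost its call in 6 of the 7 fits with a liver left out and without TMM scaling (log2 fold change -0.18, edgeR adjusted p = 0.143).

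**Figure D5:**
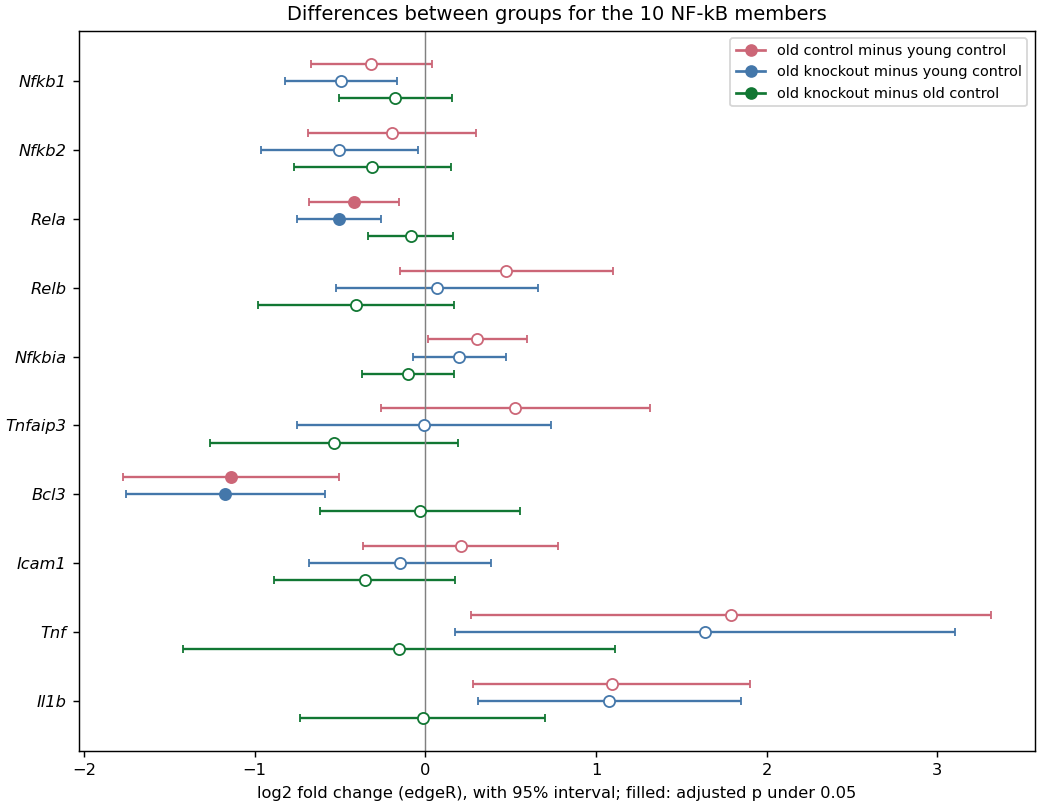
Log2 fold change with 95% interval of each member, filled where the adjusted p is under 0.05, for old against young controls, knockout against old controls and knockout against young controls. Bcl3 and Rela lie below 0 against young livers in both old groups, and the knockout against old control points all lie between -0.54 and -0.01.

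Within the pathway, 10 of the 92 other genes were higher and 11 lower in the knockout livers than in young controls, next to 21 and 11 with age and to 6.64% higher and 4.97% lower over all genes. Tnfrsf13c, which passed the filter only through old livers, is among the 10. Without TMM scaling the share of called genes that were higher moved from 57.2% to 92.9%. Il1r1 was at 211 ± 59.9 CPM in young controls, 61.3 ± 48.4 CPM in old controls and 36.9 ± 13.9 CPM in knockout livers (log2 fold change -2.51 against young, edgeR adjusted p = 0.0147). Bcl2l1 (-0.73, edgeR adjusted p = 0.0107), Nfkbib (-0.59, edgeR adjusted p = 0.0288) and Tnfrsf12a (-1.67, edgeR adjusted p = 0.0159) were lower too. Il1a was at 4.02 ± 0.879 CPM (0.85, edgeR adjusted p = 0.044), above young controls. Ccl5, a chemokine for T cells, was at 2.72 ± 0.36 CPM in young controls, 8.67 ± 7.03 CPM in old controls and 19.99 ± 9.96 CPM in knockout livers (2.87, SE 0.61, edgeR adjusted p = 0.0221). Cxcl1, a chemokine for neutrophils, was at 96.3 ± 67.9, 44.5 ± 31.1 and 19.6 ± 6.58 CPM (-2.29, SE 0.56, edgeR adjusted p = 0.0314). The T and NK marker sums were 9.68 to 25.7 CPM in the knockout livers and 2.85 to 4.04 CPM in young controls; their part in the level of Ccl5 was not tested. Calls depended on single livers here as over all genes: of 21 named, 0 kept the call in all 13 alternatives. Without young control 2 none of the 21 was called, and Cxcl1 was at -1.65 (edgeR adjusted p = 0.145). Without young control 1 or 3 the call ended for 14 and 15 of the 21, and without knockout liver 1, 2, 3 or 4 for 4, 14, 15 and 14. Over all genes these fits kept 411 and 177 of the 1614 calls, and 1353, 382, 322 and 289. Among the 7 fits with a liver left out, Il1r1, Tnfrsf12a and Bcl2l1 were called in 6, Ccl5 and Cxcl1 in 2, and Nfkbib and Il1a in 1.

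Both guides were compared within the knockout group, with 2 livers each. No member was called by edgeR (smallest adjusted p = 0.9995), 0 of 10 had an unadjusted p under 0.05 with 4.34% of all genes, and 0.0216% of all genes were called. Groups did not overlap for 3 members, Bcl3, Icam1 and Il1b, with 38.6% of all genes, and guide 4 was the higher in each. Bcl3 was at 48.2 ± 1.06 CPM with guide 4 and 30.8 ± 4.84 CPM with guide 2 (log2 fold change 0.64, 95% interval -0.05 to 1.33). Il1b was at 5.28 ± 2.46 and 3.12 ± 0.45 CPM (0.76, -0.10 to 1.62), and Icam1 at 32.0 ± 6.8 and 22.5 ± 0.986 CPM (0.51, -0.15 to 1.17). Without knockout liver 2, the higher guide 4 liver for both, the log2 fold changes were 0.18 for Il1b and 0.27 for Icam1. Against old controls, 0 members were called for guide 2, with 0.0216% of all genes, and 1 had an unadjusted p under 0.05, with 7.04%. That gene was Icam1 (log2 fold change -0.63, interval -1.24 to -0.02, edgeR adjusted p = 0.693). Guide 2 livers lay below all old controls for Icam1 and Il1b, 2 of 10 members, with 19.6% of all genes not overlapping.

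The genes with the most similar pattern to each member over the 10 livers were ranked by Pearson's r of log2 CPM, as a description over livers that share age group and depth. For Bcl3 they were Zbtb7b (r 0.97, Spearman's rho 0.94), Zfp9 (0.96 and 0.99) and Ctif. For Nfkb2 they were Cd14 (0.93 and 0.96), Tom1l1 and Cxcl1 (0.87 and 0.72). Tnf was closest to Cd7 (0.97 and 0.99), and Il1b to Pla2g7 (0.96 and 0.79) and Rap1gap2 (0.94 and 0.98). Relb was closest to Clec4e (0.92 and 0.87), Rela to Lrrc8a (0.98), Nfkb1 to Tfe3 (0.96 and 0.94), Nfkbia to Gramd4 (0.95), Tnfaip3 to Nrip1 (0.96 and 0.96) and Icam1 to Bahd1 (0.92 and 0.94).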

How the data were processed

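PolyA RNA of 10 livers was sequenced, and the authors deposited raw read counts per gene, whole numbers without normalization. The submitters' processing notes name FastQC 0.11.8, Trim Galore 0.4.4, STAR 2.5.3a, HOMER and mm10, with no role given. Which tool counted the reads, whether strand was used and which filters were applied are not given in the sources used here. The counts were analysed in R 4.3.3 with edgeR 4.0.16: filterByExpr (count minimum 10, total minimum 15), TMM factors and the quasi-likelihood test in 1 model with 3 groups, or 4 for the guides, with Benjamini-Hochberg adjustment (threshold 0.05) over 13909 genes. Alternatives were RLE factors, total counts alone, DESeq2 1.42.0, limma voom 3.58.1, no filter, only the groups compared and each liver left out. The code was tested on simulated counts. The members and gene lists were chosen with earlier results of these data known. Besides the members, up to 5 called genes per role list were named in order of adjusted p, and where none passed between knockout and old control, the gene with the smallest p. Marker lists cover 10 cell types, of which those of cholangiocytes summed to 49.0 to 165 CPM with 0 of 5 called with age. Replicate samples differed by more than sampling noise (lowest chi-square per degree of freedom 20.3). Gene positions and exon lengths come from GENCODE M21 on GRCm38.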

Additional observations from a re-analysis of the deposited data

Results flagged for a closer look

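Among the 4 knockout livers, 8 of 102 pathway genes tested had a liver apart from the others by Dixon's gap-to-range ratio, where chance gives about 5.1 of 102. Nfkb1 was highest in knockout liver 3, at 27.8 CPM with the other livers between 26.2 and 26.4 CPM (ratio 0.9), a gap that is small beside its level. Knockout liver 2 was the highest for Nfkbid (1.88 CPM, ratio 0.932), Tlr6 (2.14 CPM, 0.896), Cxcl2 (0.959 CPM, 0.877), Mmp9 (2.66 CPM, 0.857) and Saa3 (20.2 CPM, 0.896). It was also the knockout liver with the most Tnf and Il1b. Il1rap was highest in knockout liver 1 (147 CPM, ratio 0.854), and Nfkbiz was lowest in knockout liver 4 (16.9 CPM, ratio 0.853).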

How the results depend on the processing

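No paired analysis was possible because replicate numbers here follow accession order and nothing links livers of different groups. With age, 3172 genes were called; fitting only the groups compared gave 1192, and leaving out 1 liver gave 396 (without young control 2) to 5327 (without old control 3). The 2 called members became 4 with total counts, 4 with DESeq2, 1 with no filter, 1 with only the groups compared, and 0 to 4 with 1 liver left out. For knockout against old control, 0 genes became 8 with DESeq2, 3 for guide 2 against old control, and 0 to 3 with 1 liver left out (3 without old control 1). For knockout against young, 1614 genes became 3585 with total counts, 2803 with DESeq2, 4223 with only the groups compared, 969 with limma voom, and 56 (without young control 2) to 1652 (without knockout liver 1) with 1 liver left out. The 2 members became 4 with DESeq2, 4 with only the groups compared and 0 to 2 with 1 liver left out. Between guides, 3 genes became 73 with DESeq2, 10 with no filter, 31 with only the groups compared and 0 to 0 with 1 liver left out. The cause of these changes was not tested. Without TMM scaling, the share of called genes that were higher moved from 62% to 91.6% with age and from 57.2% to 92.9% for knockout against young.

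Several log2 fold changes changed sign. With total counts the log2 fold change became 0.11 for Nfkb2 with age, 0.0073 for Bcl3 and 0.017 for Il1b between knockout and old control, and 0.31 for Tnfaip3 and 0.19 for Icam1 between knockout and young. For guide 4 against old control it became 0.25 for Bcl3, 0.069 for Tnf, 0.32 for Il1b and 0.037 for Cd44. Between guides, Rela became 0.004 (RLE), 0.011 (total counts), 0.0038 (DESeq2), 0.0006 (no filter) and 0.009 (only the groups compared), and Relb 0.0027, 0.023, 0.0029 (DESeq2) and 0.013 (only the groups compared). Leaving out 1 liver at a time gave ranges across 0. With age they were -0.40 to 0.0067 for Nfkb2 and -0.055 to 0.41 for Icam1. Between knockout and old control they were -0.15 to 0.038 for Rela, -0.20 to 0.28 for Bcl3, -0.65 to 0.46 for Tnf, -0.39 to 0.14 for Il1b and -1.70 to 0.13 for Vcam1. Between knockout and young they were -0.17 to 0.34 for Relb, -0.29 to 0.15 for Tnfaip3 and -0.41 to 0.059 for Icam1. Between guides they were -0.082 to 0.0001 for Nfkb1, -0.25 to 0.32 for Nfkb2, -0.035 to 0.029 for Rela, -0.40 to 0.30 for Relb, -0.073 to 0.14 for Nfkbia, -0.73 to 0.49 for Tnfaip3 and -0.86 to 1.15 for Tnf. Low counts limit Tnf, with 4 to 16 counts per young liver.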
